A study of Mus musculus with 9 samples.

Results

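The genes described are 39 transcripts characteristic of heart muscle cells, taken by gene symbol from a list drawn up with earlier results of these data known, and followed library by library through RNA sequencing of mouse cardiac endothelium. Of the 39, 38 were found among the 18094 genes of the deposited table, and Tnnc1 was not analysed here. A filter on low counts kept 37 of them among 15277 tested genes, and the atrial myosin light chain Myl7 did not pass it. The 9 libraries came from cells bound to magnetic beads for endothelium from fresh heart tissue, in 3 groups of 3. The groups were BPH/2J mice at 22 weeks of age, BPH/2J mice at 4 weeks, and BPN/3J mice at 22 weeks. BPH/2J mice are inbred and hypertensive and BPN/3J mice are their normotensive counterpart, so the effect of pressure and that of strain cannot be told apart. The 4-week BPH/2J and BPN/3J groups differ in line and age at once. No BPN/3J library was from 4 weeks, so any difference of 4-week BPH/2J from BPN/3J is against 22-week BPN/3J. The sources used here do not give whether a library held 1 animal or a pool, or whether replicates were separate animals. The p-values therefore rest on the spread of 3 libraries per group, part or all of which may be technical.

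Heart muscle cells contract through sarcomeres, in which thick filaments of myosin pull on thin filaments of actin that carry the troponin complex and tropomyosin. Titin, the Z disc and the M band hold the filaments in register. Calcium released from the sarcoplasmic reticulum through the ryanodine receptor starts each beat, and the pump Atp2a2 returns it. Creatine kinases, myoglobin, fatty acid binding protein and muscle forms of glycolytic enzymes serve the cell's energy supply. Endothelial cells build no sarcomeres. Tpm1, Atp2a2 and Des are also made by other cells of the vessel wall, smooth muscle among them, so sums are given with and without these 3 genes. Whether other cells also made some of the remaining genes was not tested. The sum without the 3 is therefore no measure of heart muscle alone.

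All 38 genes together took a small share of the counts. Their share was 0.164%, 0.144% and 0.153% in the 22-week BPH/2J libraries, 0.167%, 0.139% and 0.153% in the 4-week BPH/2J libraries, and 0.213%, 0.243% and 0.233% in the BPN/3J libraries. Each BPN/3J library was thus above each of the 6 BPH/2J libraries, and the ages of BPH/2J overlapped. Levels per length are depth-scaled counts (CPM) per kilobase of the deposited gene length (RPKM). That length exceeds the longest coding transcript for some genes, at 1950 against 889 bases for Myl2 and 6485 against 2890 for Tpm1. The order of genes by RPKM therefore depends on the length used. On the deposited length myoglobin Mb had the highest mean over the 9 libraries, at 89.1 RPKM. Cardiac troponin T Tnnt2 followed at 79.6 RPKM. The lowest were the ryanodine receptor Ryr2 at 0.206 RPKM and titin Ttn at 0.0975 RPKM. Endothelial cadherin Cdh5 stood at 765 ± 50.7 RPKM in 22-week BPH/2J, 798 ± 23.6 RPKM in 4-week BPH/2J and 603 ± 10.5 RPKM in BPN/3J (SD, n = 3 each), above every gene of the set. In bulk RNA a lower level from fewer heart muscle cells and one from less RNA per cell cannot be told apart.

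Promoters of 3 filament genes are printed, the pair of muscle actins because they differed between the lines by very unequal amounts, and Myh6 as the main myosin. Each runs 5′ to 3′ over 300 bases, from 250 before to 50 after the gene's start in the RefSeq table of build GRCm38.p6, and all 3 lie on the minus strand. Capitals mark a CArG box, the letters bound by serum response factor, or the letters TATAAA on the sense strand. The stretch of Acta1 lies at chr8:123894726-123895025, that of Actc1 at chr2:114052826-114053125 and that of Myh6 at chr14:54966558-54966857.
Acta1: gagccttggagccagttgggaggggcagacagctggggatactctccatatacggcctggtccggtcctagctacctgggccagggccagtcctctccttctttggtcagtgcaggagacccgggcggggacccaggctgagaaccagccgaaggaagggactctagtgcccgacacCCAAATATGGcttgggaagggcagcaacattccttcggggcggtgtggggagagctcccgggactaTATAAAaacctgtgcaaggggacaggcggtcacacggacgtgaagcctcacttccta
Actc1: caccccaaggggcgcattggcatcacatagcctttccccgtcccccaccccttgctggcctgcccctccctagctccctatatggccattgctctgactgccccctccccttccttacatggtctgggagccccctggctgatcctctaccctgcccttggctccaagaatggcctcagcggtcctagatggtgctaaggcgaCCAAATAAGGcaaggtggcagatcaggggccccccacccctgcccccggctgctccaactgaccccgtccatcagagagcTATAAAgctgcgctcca
Myh6: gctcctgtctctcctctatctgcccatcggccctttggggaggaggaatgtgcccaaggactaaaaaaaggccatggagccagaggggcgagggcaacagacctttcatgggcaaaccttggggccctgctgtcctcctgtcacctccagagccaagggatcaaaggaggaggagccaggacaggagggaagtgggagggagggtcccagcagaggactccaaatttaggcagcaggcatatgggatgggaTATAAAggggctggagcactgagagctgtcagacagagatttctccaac
Both actin promoters hold a CArG box and TATAAA, and that of Myh6 holds TATAAA without a CArG box in this window. A table entry was matched for 35 of the 39 genes, all but Atp2a2, Tcap, Myom2 and Trdn. A CArG box on either strand was present in 6 of the 35 (17.1%), against 1.57% of all 27025 promoters, and TATAAA on the sense strand in 6 (17.1%), against 8.88%. A MEF2 site on either strand was present in 5 of the 35 (14.3%), against 3.26% of all promoters. The letters CATTCC were present on either strand in 13 (37.1%), against 14.6% of all promoters, CAGCTG in 15 (42.9%), against 16.1%, and AGATAA in 8 (22.9%), against 11.4%. A MEF2 site can contain TATAAA, but the genes with each were different here. Such letter matches describe the sequence and are no measure of binding.

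In 22-week BPH/2J against BPN/3J of the same age, heart muscle transcripts were mostly lower. By edgeR's quasi-likelihood test with Benjamini-Hochberg adjustment at 0.05, 23 of the 37 tested genes were lower in 22-week BPH/2J, while of all tested genes 38.0% were called and 18.2% were called lower. None of the 37 was higher by that test (0 at an unadjusted p under 0.05, and 0 in DESeq2), and DESeq2 called 24 lower. Their median log2 difference was -0.59, beside 0.02 over all tested genes, and it ran from -3.69 to 0.40. For 26 genes all 3 BPH/2J libraries were below all 3 BPN/3J libraries, a pattern shown by 26.4% of all tested genes. Leaving out each of the 9 libraries in turn gave 19 to 26 lower genes, and 17 of the 23 were called in every one of those fits.

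In 4-week BPH/2J against the same BPN/3J libraries, 30 of the 37 genes were lower, while 53.1% of all tested genes were called and 25.3% of all were lower. Their median log2 difference was -0.73, beside 0.00 over all tested genes, and it ran from -3.33 to 0.26. No gene of the set was higher by edgeR (1 at an unadjusted p under 0.05, and 0 in DESeq2). Ranges were apart, with BPH/2J lower, for 27 of the 37, as for 28.7% of all tested genes. Leaving out each library gave 23 to 31 lower genes, with 21 of the 30 called in every fit. This comparison shares its BPN/3J libraries with the one at 22 weeks, so the counts are not independent.

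Between the ages of BPH/2J the genes moved less. At 22 weeks against 4 weeks 8 of the 37 were higher and 1 was lower, while 41.0% of all tested genes were called and 19.9% of all were higher. The 8 were Myh6, Myh7, Mybpc3, Myom2, Eno3, Tcap, Nebl and Hrc, and the lower one was Atp2a2. The median log2 difference over the 37 was 0.18, beside 0.01 over all genes, with a range of -0.52 to 0.85. This count leaned on single libraries. Without 4-week replicate 1 it was 13 higher, adding Myl2, Tnnt2, Pln, Mb and Fabp3, without 4-week replicate 2 or 4-week replicate 3 it was 2, and without one of the 22-week BPH/2J libraries it was 3 to 4. Without BPN/3J replicate 3, which belongs to neither age group but enters the shared filter, scaling and spread, it was 5. Only Nebl, Myh6 and the lower Atp2a2 were called in all 9 of these fits.

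**Figure D1:**
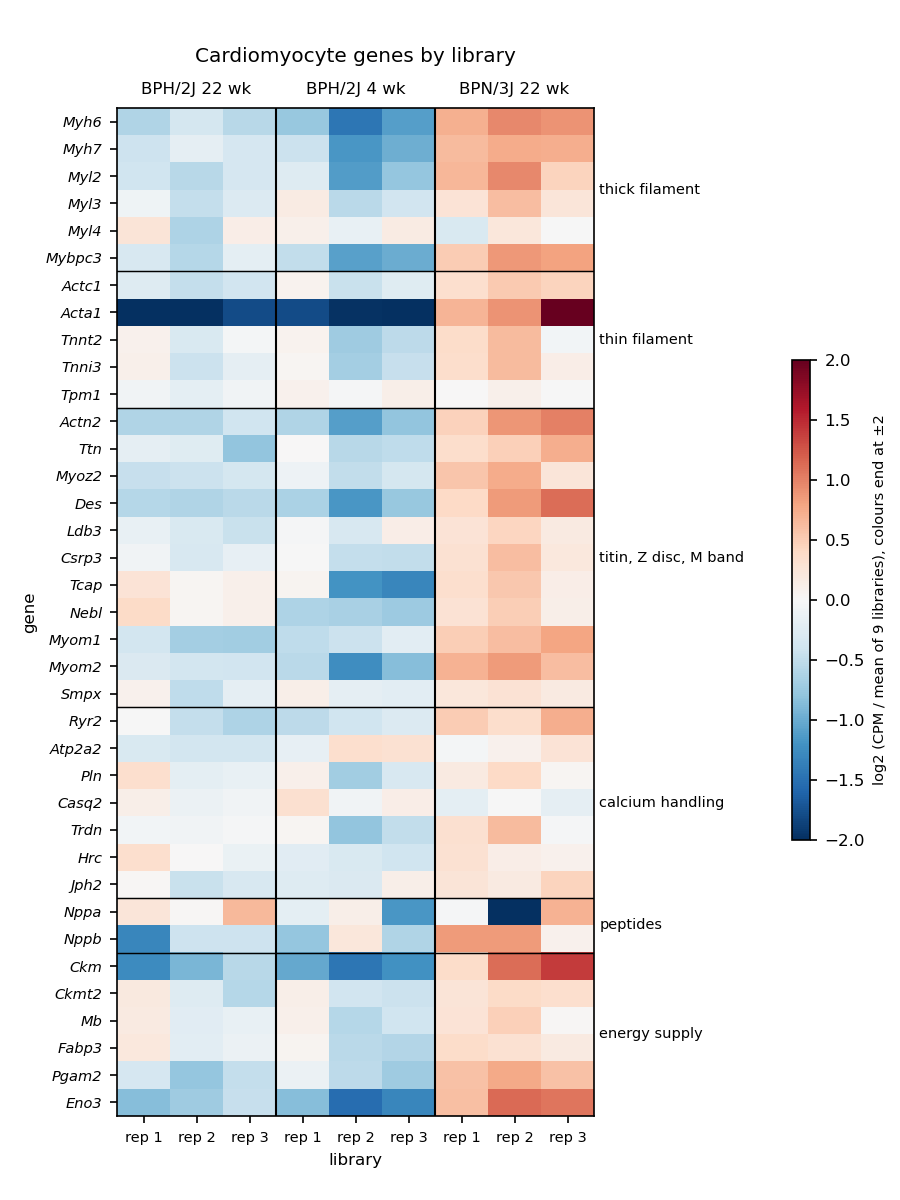
The 37 tested genes (rows, by role) in 9 libraries (columns: 22-week BPH/2J, 4-week BPH/2J, BPN/3J), coloured by the log2 ratio of a library's TMM-scaled CPM to the gene's mean over the 9 libraries, with colours ending at 2 in either direction. Most rows are blue in both BPH/2J groups and red in BPN/3J, Acta1 most of all, while Myl4, Tpm1, Casq2, Pln and Nppa show no such split.

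**Figure D2:**
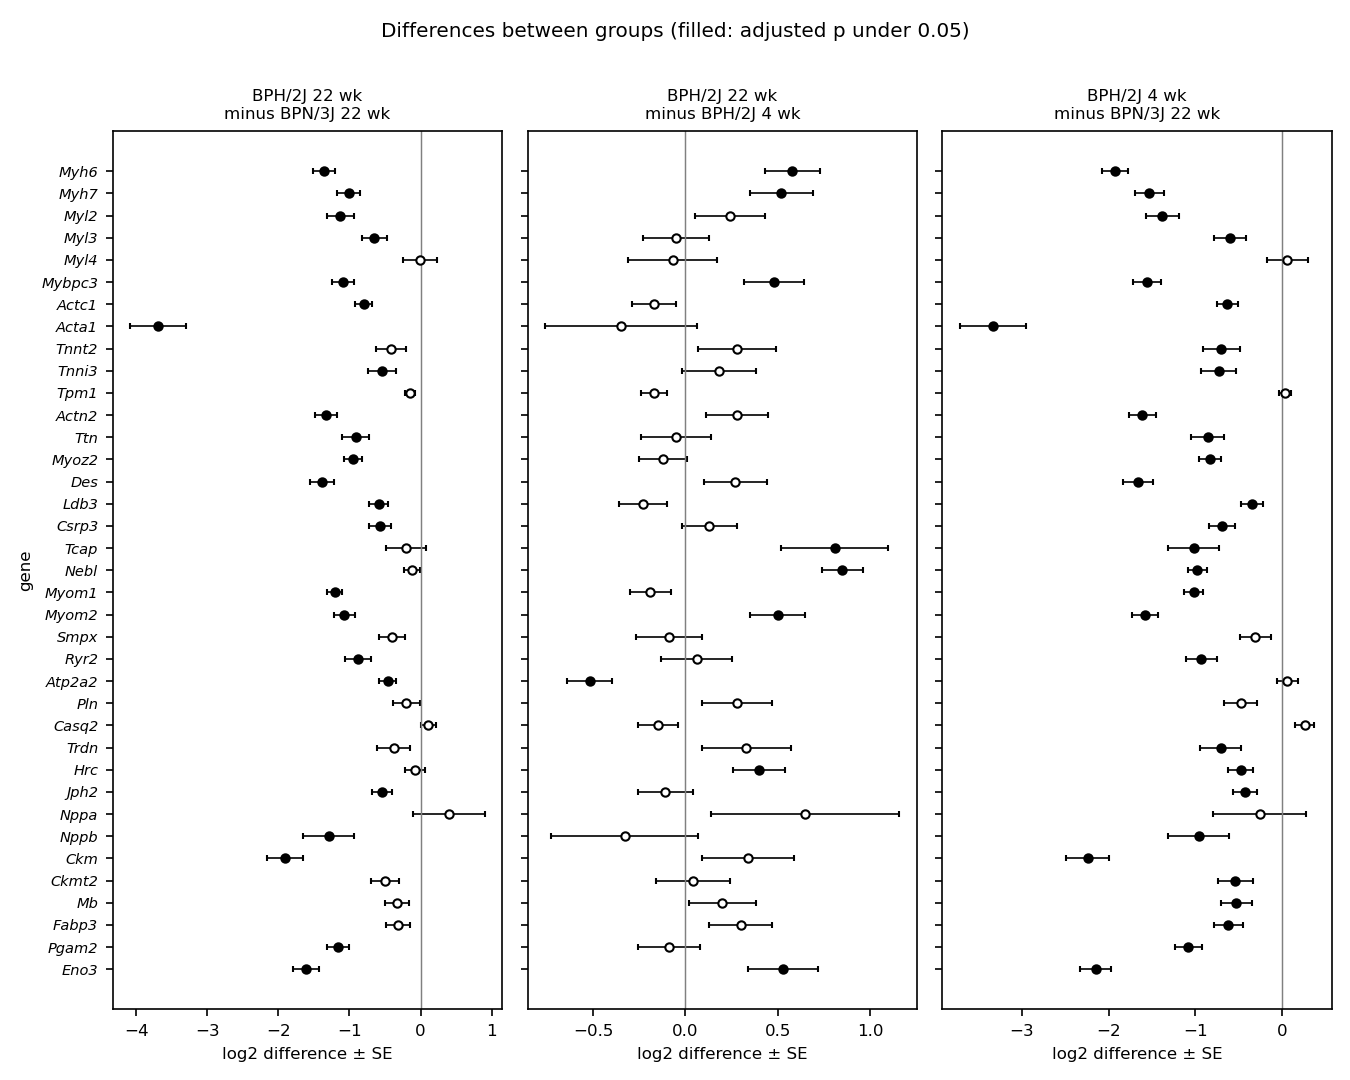
Log2 difference ± SE of each tested gene in 3 comparisons (22-week BPH/2J minus BPN/3J, 22-week minus 4-week BPH/2J, 4-week BPH/2J minus BPN/3J), with filled points at an adjusted p under 0.05. Filled points lie left of 0 in the first panel (23 genes) and the third (30 genes), and in the middle panel 8 lie right of 0 and Atp2a2 left of it.

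Of the 6 thick filament genes tested, 5 were lower in 22-week BPH/2J than in BPN/3J, 5 were lower in 4-week BPH/2J, and 3 were higher at 22 than at 4 weeks. Of all tested genes 18.2%, 25.3% and 19.9% were called in these directions, in the same order. Levels below are CPM scaled by the trimmed mean of M values (TMM). The fast cardiac myosin heavy chain Myh6, the main myosin of the adult mouse ventricle, stood at 62.4, 74.2 and 63.9 CPM in 22-week BPH/2J, at 56.0, 34.7 and 43.7 CPM in 4-week BPH/2J, and at 154, 183 and 176 CPM in BPN/3J. The 3 groups did not overlap in any pair. The log2 difference was -1.36 ± 0.15 (SE; adjusted p = 6.83e-05) at 22 weeks, -1.93 ± 0.15 (adjusted p = 3.27e-06) for 4-week BPH/2J against BPN/3J, and 0.58 ± 0.15 (adjusted p = 0.0104) between the ages.

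The slow myosin heavy chain Myh7, the main form of the fetal mouse ventricle, had 5.77, 6.73 and 6.09 CPM in 22-week BPH/2J, 5.68, 3.41 and 3.87 CPM in 4-week BPH/2J, and 11.8, 12.8 and 12.7 CPM in BPN/3J. It was lower than in BPN/3J by -1.01 ± 0.16 at 22 weeks (adjusted p = 0.000946) and by -1.53 ± 0.17 in 4-week BPH/2J (adjusted p = 3.36e-05), on the log2 scale. Myosin binding protein C, Mybpc3, was called in the same directions, with log2 differences of -1.09 ± 0.15, 0.48 ± 0.16 between the ages, and -1.56 ± 0.16. The 22-week and 4-week BPH/2J libraries of Mybpc3 overlapped. Between the ages the adjusted p of Myh7 was 0.0511 to 0.113 without any 1 of the 22-week BPH/2J libraries or without 4-week replicate 2 or 3, and that of Mybpc3 was 0.0818 to 0.114 without 22-week BPH/2J replicate 1 or 3 or 4-week replicate 2 or 3.

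The ventricular regulatory light chain Myl2 had the highest RPKM of the thick filament group. It stood at 79.7, 71.5 and 83.4 CPM in 22-week BPH/2J, at 87.9, 48.5 and 61.7 CPM in 4-week BPH/2J, and at 166, 206 and 143 CPM in BPN/3J. The ages overlapped and BPN/3J lay apart. Its log2 difference was -1.13 ± 0.19 at 22 weeks (adjusted p = 0.00119), 0.24 ± 0.19 between the ages (adjusted p = 0.335) and -1.38 ± 0.19 for 4-week BPH/2J against BPN/3J (adjusted p = 0.000173). The ventricular essential light chain Myl3 was lower as well, by -0.65 ± 0.18 at 22 weeks and -0.60 ± 0.18 in 4-week BPH/2J. Its adjusted p was 0.0553 to 0.0611 at 22 weeks without BPH/2J replicate 2 or BPN/3J replicate 2. For 4-week BPH/2J it was 0.0517 to 0.0642 without 4-week replicate 2 or 3 or BPN/3J replicate 2.

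No light chain typical of the atrium was called lower in BPH/2J. The atrial essential light chain Myl4 had 2.89, 1.58 and 2.64 CPM in 22-week BPH/2J, 2.58, 2.17 and 2.70 CPM in 4-week BPH/2J, and 1.96, 2.81 and 2.39 CPM in BPN/3J. All 3 groups overlapped, and the 22-week log2 difference from BPN/3J was -0.01 ± 0.24 (95% interval -0.48 to 0.46; adjusted p = 0.977). Myl7 had 12, 4 and 20 counts in 22-week BPH/2J, 5, 1 and 8 counts in 4-week BPH/2J, and 1, 0 and 6 in BPN/3J, too few for the filter. The authors' deposited table lists it as higher in 22-week BPH/2J than in BPN/3J at a false discovery rate of 0.02, the only one of the 38 genes it lists as higher there. Here Myl7 passed the filter in 7 of the 9 fits that left out a library, and did so through the 22-week BPH/2J libraries, where it is highest, so its calls there carry no weight. It was called higher in 2 of the 7, those without 22-week BPH/2J replicate 2 or BPN/3J replicate 3, and not in the other 5 (adjusted p = 0.0634 to 0.180) or with no filter (adjusted p = 0.074). Sarcolipin Sln, another atrial gene, was near the detection limit, with 7, 1 and 4 counts in 22-week BPH/2J, 1, 0 and 1 counts in 4-week BPH/2J, and 0, 0 and 1 in BPN/3J.

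Thin filament genes held the widest difference of the set. Acta1, the actin of skeletal muscle that heart muscle also makes, stood at 3.50, 4.38 and 7.47 CPM in 22-week BPH/2J, at 7.47, 6.55 and 5.62 CPM in 4-week BPH/2J, and at 41.3, 48.1 and 108 CPM in BPN/3J. The lowest BPN/3J library was above every BPH/2J library, and BPN/3J replicate 3 was far above the other two. The log2 difference was -3.69 ± 0.39 at 22 weeks (adjusted p = 5.84e-05) and -3.33 ± 0.38 for 4-week BPH/2J against BPN/3J (adjusted p = 4.14e-05), and -0.35 ± 0.41 between the ages (adjusted p = 0.52). Without BPN/3J replicate 3 the first and second were -3.12 and -2.77, and without 22-week BPH/2J replicate 3 the first was -4.06.

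Actc1, the actin of adult heart muscle, was also lower in both BPH/2J groups. Its levels were 69.0, 59.1 and 63.0 CPM in 22-week BPH/2J, 86.1, 60.2 and 69.5 CPM in 4-week BPH/2J, and 104, 118 and 112 CPM in BPN/3J, with BPN/3J apart from both. The log2 difference was -0.80 ± 0.12 at 22 weeks (adjusted p = 0.000462) and -0.63 ± 0.12 for 4-week BPH/2J (adjusted p = 0.00102). Counts of Acta1 were thus 5.07%, 7.40% and 11.9% of those of Actc1 in 22-week BPH/2J, 8.68%, 10.9% and 8.09% of them in 4-week BPH/2J, and 39.8%, 40.8% and 96.4% of them in BPN/3J. The transcripts of the 2 actins shared no stretch of 100 bases, the read length, so a read from one would not match the other in full.

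Cardiac troponin T Tnnt2, which ties the troponin complex to tropomyosin, had 93.8, 70.9 and 85.8 CPM in 22-week BPH/2J, 92.1, 53.7 and 60.9 CPM in 4-week BPH/2J, and 114, 136 and 84.9 CPM in BPN/3J. BPN/3J replicate 3 lay among the BPH/2J libraries. Its log2 difference was -0.42 ± 0.21 at 22 weeks (adjusted p = 0.135) and 0.28 ± 0.21 between the ages (adjusted p = 0.318), and it was lower in 4-week BPH/2J against BPN/3J by -0.70 ± 0.21 (adjusted p = 0.0166). Without 4-week replicate 2 or 3 or BPN/3J replicate 2 the adjusted p of Tnnt2 in that comparison was 0.0581 to 0.0736, and without 4-week replicate 1 it was called at 22 weeks, at -0.42 (adjusted p = 0.0435). Troponin I Tnni3, the inhibitory subunit, was lower in both, by -0.54 ± 0.20 (adjusted p = 0.0493) and -0.73 ± 0.20 (adjusted p = 0.00979), the first at 0.0583 to 0.173 in the 5 fits without 22-week BPH/2J replicate 2 or 3, 4-week replicate 3, or BPN/3J replicate 1 or 2. Tropomyosin Tpm1 had 330, 304 and 332 CPM in 22-week BPH/2J, 369, 343 and 376 CPM in 4-week BPH/2J, and 350, 374 and 344 CPM in BPN/3J. Its 3 log2 differences, -0.15 ± 0.07 at 22 weeks, -0.17 ± 0.07 between the ages and 0.03 ± 0.07 for 4-week BPH/2J, did not pass the threshold (adjusted p = 0.106, 0.0579 and 0.749). Without 4-week replicate 2 Tpm1 was called lower at 22 than at 4 weeks, at -0.21 (adjusted p = 0.0478).

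**Figure D3:**
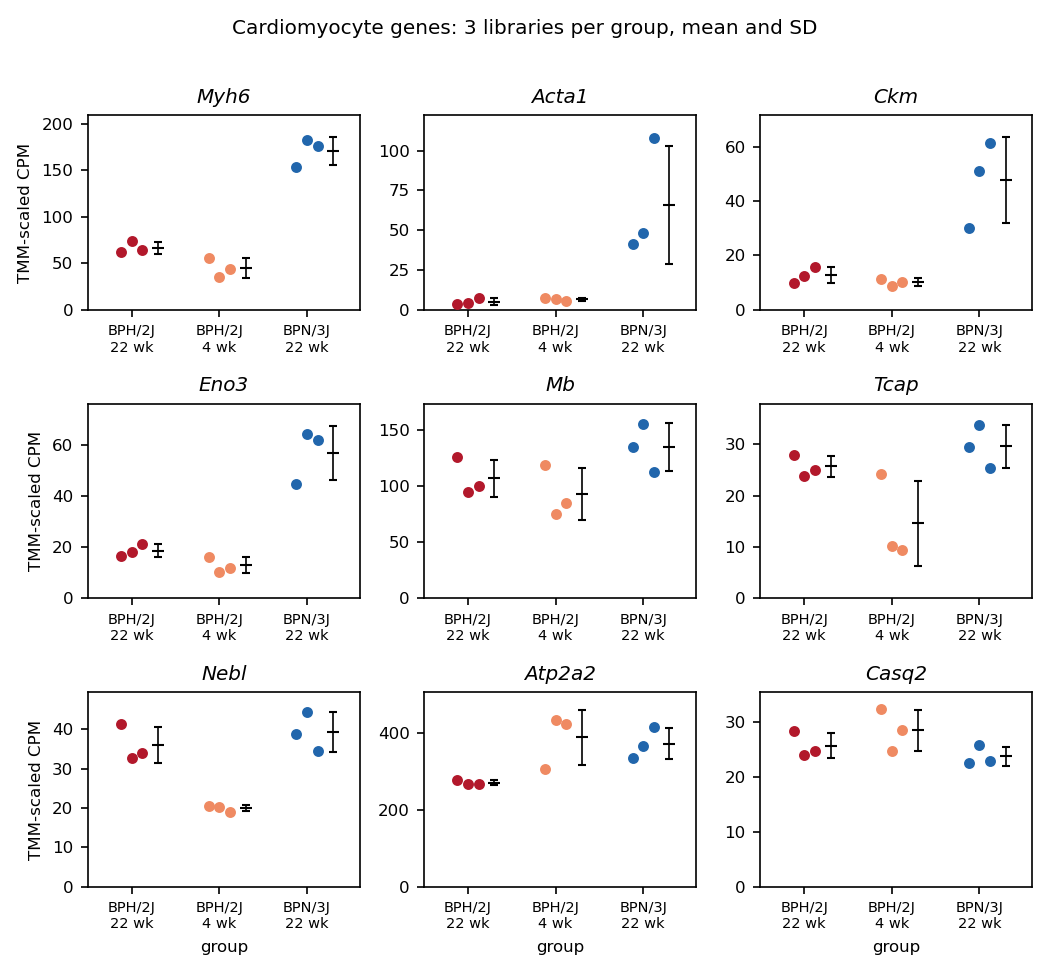
TMM-scaled CPM of 9 genes in each library (points), grouped as 22-week BPH/2J, 4-week BPH/2J and BPN/3J, with the mean and SD beside each group and each axis starting at 0. Myh6, Acta1, Ckm and Eno3 are highest in all 3 BPN/3J libraries, Tcap and Nebl are lowest in 4-week BPH/2J apart from its replicate 1 for Tcap, and Mb and Casq2 overlap between groups.

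Of the 11 genes of titin, the Z disc and the M band, 8 were lower than in BPN/3J at 22 weeks and 10 in 4-week BPH/2J. Of all tested genes 18.2% and 25.3% were lower in these comparisons. Desmin Des, the intermediate filament around the Z disc, stood at 39.3, 38.5 and 39.9 CPM in 22-week BPH/2J, at 37.3, 26.0 and 34.3 CPM in 4-week BPH/2J, and at 76.9, 105 and 126 CPM in BPN/3J. All 6 BPH/2J libraries were below the lowest BPN/3J library. Des was lower by -1.39 ± 0.17 at 22 weeks (adjusted p = 0.000147) and by -1.66 ± 0.17 in 4-week BPH/2J (adjusted p = 2.02e-05). The M band proteins Myom1 and Myom2 were lower at 22 weeks by -1.21 ± 0.11 and -1.07 ± 0.15, and in 4-week BPH/2J by -1.02 ± 0.11 and -1.58 ± 0.15. Sarcomeric alpha-actinin Actn2, which crosslinks actin at the Z disc, was lower by -1.33 ± 0.16 and -1.61 ± 0.16. Titin Ttn, calsarcin Myoz2, the Z disc protein Ldb3 and muscle LIM protein Csrp3 were lower in both comparisons too, by -0.95 to -0.57 in the first and -0.86 to -0.35 in the second. Csrp3 lost its call at 22 weeks, at an adjusted p of up to 0.0587, without BPH/2J replicate 2 or BPN/3J replicate 2. Ldb3 lost its call in 4-week BPH/2J, at 0.0525 to 0.150, without 22-week BPH/2J replicate 2, 4-week replicate 2, or BPN/3J replicate 1 or 2.

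Tcap and Nebl were not called at 22 weeks, where their BPH/2J and BPN/3J libraries overlapped, and were higher at 22 than at 4 weeks. Telethonin Tcap, which caps titin at the Z disc, had 28.0, 23.9 and 25.1 CPM in 22-week BPH/2J, 24.2, 10.2 and 9.42 CPM in 4-week BPH/2J, and 29.5, 33.7 and 25.4 CPM in BPN/3J. At 4 weeks replicate 1 lay with the 22-week libraries and the other two far below. The log2 difference between the ages was 0.81 ± 0.29 (adjusted p = 0.046), and without 4-week replicate 1 it was 1.39. In each of the 8 fits that left out another library it was 0.58 to 0.87 and not called (adjusted p = 0.0595 to 0.144). Tcap was at -0.20 ± 0.28 in 22-week BPH/2J against BPN/3J (adjusted p = 0.597) and lower by -1.02 ± 0.29 in 4-week BPH/2J (adjusted p = 0.0133).

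Nebulette Nebl, a Z disc protein that binds actin, had 41.3, 32.8 and 34.1 CPM in 22-week BPH/2J, 20.6, 20.2 and 19.1 CPM in 4-week BPH/2J, and 38.7, 44.5 and 34.6 CPM in BPN/3J. The 4-week libraries lay close together and below all others. It was higher at 22 than at 4 weeks by 0.85 ± 0.11 (adjusted p = 0.000199), the largest age difference among the 37, and lower in 4-week BPH/2J than in BPN/3J by -0.98 ± 0.11 (adjusted p = 3.76e-05). At 22 weeks against BPN/3J it was at -0.12 ± 0.11 (adjusted p = 0.386). The small muscle protein Smpx passed in no comparison, with log2 differences of -0.40 ± 0.18, -0.09 ± 0.18 and -0.31 ± 0.18.

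Of the 7 calcium handling genes, 3 were lower than in BPN/3J at 22 weeks and 4 in 4-week BPH/2J, beside 18.2% and 25.3% of all tested genes. The pump Atp2a2 stood at 279, 267 and 267 CPM in 22-week BPH/2J, at 308, 435 and 425 CPM in 4-week BPH/2J, and at 336, 367 and 416 CPM in BPN/3J. The 22-week BPH/2J libraries were below all others, and the other two groups overlapped. Atp2a2 was lower at 22 weeks by -0.46 ± 0.12 against BPN/3J (adjusted p = 0.0141) and by -0.52 ± 0.12 against 4-week BPH/2J (adjusted p = 0.00701), and at 0.06 ± 0.12 in 4-week BPH/2J against BPN/3J (adjusted p = 0.705). Against BPN/3J its adjusted p was 0.0509 to 0.0598 without BPH/2J replicate 3 or BPN/3J replicate 3. At 4 weeks its low library was replicate 1, the one in which 28 of the 37 genes were highest.

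Ryr2, the release channel, and junctophilin Jph2, which holds the reticulum against the cell membrane, were lower in both comparisons with BPN/3J. Ryr2 was lower by -0.88 ± 0.18 and -0.93 ± 0.18, and Jph2 by -0.54 ± 0.14 and -0.43 ± 0.14. The adjusted p of Jph2 was 0.0567 to 0.0603 at 22 weeks without BPH/2J replicate 2 or 3 or BPN/3J replicate 3. For 4-week BPH/2J it was 0.0503 to 0.101 without 4-week replicate 1 or 2 or BPN/3J replicate 1 or 3. Calsequestrin Casq2, the calcium store protein of the reticulum, had 28.2, 24.0 and 24.6 CPM in 22-week BPH/2J, 32.2, 24.6 and 28.4 CPM in 4-week BPH/2J, and 22.5, 25.7 and 22.9 CPM in BPN/3J. The groups overlapped, with log2 differences of 0.11 ± 0.11 at 22 weeks (95% interval -0.10 to 0.32; adjusted p = 0.432) and 0.26 ± 0.11 for 4-week BPH/2J (adjusted p = 0.0602). Without 4-week replicate 2 Casq2 was called higher there, at 0.36 (adjusted p = 0.0157).

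Phospholamban Pln, the inhibitor of the pump, had 101, 69.9 and 72.4 CPM in 22-week BPH/2J, 86.2, 49.9 and 64.3 CPM in 4-week BPH/2J, and 91.3, 106 and 82.5 CPM in BPN/3J, and passed in no comparison. Without 4-week replicate 1 it was called between the ages, at 0.51, and without that library or 22-week BPH/2J replicate 1 it was called lower in 4-week BPH/2J than in BPN/3J, at -0.70 to -0.48. Triadin Trdn, which links the channel to calsequestrin, was lower in 4-week BPH/2J than in BPN/3J by -0.71 ± 0.24, with an adjusted p of 0.0544 to 0.112 without 4-week replicate 2 or 3 or BPN/3J replicate 1 or 2. The histidine-rich calcium binding protein Hrc was at -0.08 ± 0.14 at 22 weeks (adjusted p = 0.672), higher at 22 than at 4 weeks by 0.40 ± 0.14 (adjusted p = 0.0472), and lower in 4-week BPH/2J than in BPN/3J by -0.48 ± 0.14 (adjusted p = 0.0166). Among the fits that left out a library its age difference was called without 22-week BPH/2J replicate 3 and without 4-week replicate 1, and had an adjusted p of 0.0547 to 0.186 in the other 7. Its 4-week difference from BPN/3J had one of 0.0568 to 0.0610 without 4-week replicate 3 or BPN/3J replicate 1.

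Natriuretic peptides, which heart muscle releases under stretch, were close to the detection limit. The atrial peptide Nppa had 15, 13 and 20 counts in 22-week BPH/2J, 11, 13 and 6 counts in 4-week BPH/2J, and 12, 3 and 19 in BPN/3J. All groups overlapped, and its log2 difference of 0.40 ± 0.50 at 22 weeks (adjusted p = 0.56) had a 95% interval of -0.59 to 1.38. It was at 0.65 ± 0.51 between the ages (adjusted p = 0.335). The brain-type peptide Nppb had 7, 13 and 13 counts in 22-week BPH/2J, 10, 19 and 12 counts in 4-week BPH/2J, and 30, 29 and 17 in BPN/3J. Nppb was lower than in BPN/3J by -1.29 ± 0.36 at 22 weeks (adjusted p = 0.0183) and by -0.96 ± 0.35 in 4-week BPH/2J (adjusted p = 0.0402), with ranges that overlapped in the second. The adjusted p was 0.0597 to 0.0721 at 22 weeks without BPH/2J replicate 1 or BPN/3J replicate 1 or 2. For 4-week BPH/2J it was 0.0516 to 0.126 in 6 of the 9 fits, those without 22-week BPH/2J replicate 2 or 3, 4-week replicate 1 or 3, or BPN/3J replicate 1 or 2. Between the ages it was at -0.33 ± 0.40 (adjusted p = 0.542).

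All 6 energy supply genes were lower in 4-week BPH/2J than in BPN/3J, and 3 of the 6, Ckm, Eno3 and Pgam2, were lower at 22 weeks. Of all tested genes 25.3% were lower in the first comparison and 18.2% in the second. The muscle creatine kinase Ckm stood at 9.86, 12.4 and 15.9 CPM in 22-week BPH/2J, at 11.5, 8.58 and 10.1 CPM in 4-week BPH/2J, and at 30.3, 51.0 and 61.6 CPM in BPN/3J. Every BPN/3J library was above the BPH/2J range. Its log2 difference was -1.91 ± 0.25 at 22 weeks (adjusted p = 0.000225) and -2.24 ± 0.25 for 4-week BPH/2J (adjusted p = 3.69e-05).

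Muscle enolase Eno3, an enzyme of glycolysis, had 16.4, 18.1 and 21.4 CPM in 22-week BPH/2J, 16.3, 10.3 and 12.0 CPM in 4-week BPH/2J, and 44.8, 64.4 and 61.9 CPM in BPN/3J. Eno3 was lower than in BPN/3J by -1.61 ± 0.18 at 22 weeks (adjusted p = 8.25e-05) and by -2.15 ± 0.18 in 4-week BPH/2J (adjusted p = 5.98e-06). It was higher at 22 than at 4 weeks by 0.53 ± 0.19 (adjusted p = 0.0399). That age difference had an adjusted p of 0.0525 to 0.134 without 22-week BPH/2J replicate 2 or 3, 4-week replicate 2 or 3, or BPN/3J replicate 3. The glycolytic mutase Pgam2 was lower by -1.16 ± 0.16 and -1.08 ± 0.16. Eno3, Pgam2, Ckm, Acta1 and Des are also genes of skeletal muscle.

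Myoglobin Mb, the oxygen store, had 126, 94.9 and 100 CPM in 22-week BPH/2J, 119, 74.9 and 84.9 CPM in 4-week BPH/2J, and 135, 155 and 113 CPM in BPN/3J. The groups overlapped at their edges. Mb was at -0.33 ± 0.17 at 22 weeks (adjusted p = 0.156) and lower by -0.53 ± 0.18 in 4-week BPH/2J (adjusted p = 0.0254). The fatty acid binding protein Fabp3 was at -0.32 ± 0.17 (adjusted p = 0.154) and lower by -0.62 ± 0.17 in 4-week BPH/2J, and the mitochondrial creatine kinase Ckmt2 at -0.50 ± 0.20 (adjusted p = 0.0718) and lower by -0.54 ± 0.20. In 4-week BPH/2J the adjusted p of Mb was 0.0576 to 0.101 without 4-week replicate 2 or 3 or BPN/3J replicate 1 or 2, and that of Ckmt2 was 0.0514 to 0.135 in 6 of the 9 fits that left out a library, all but those without 22-week BPH/2J replicate 1 or 3 or 4-week replicate 1. At 22 weeks Fabp3 was called without 4-week replicate 1 (adjusted p = 0.0316), and Ckmt2 without that library or without 22-week BPH/2J replicate 1 (adjusted p = 0.0178 to 0.0339).

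Across the 3 comparisons the largest pattern held 17 genes, lower in both BPH/2J groups than in BPN/3J and not called between the ages. A further 5 genes, Myh6, Myh7, Mybpc3, Myom2 and Eno3, were lower in both and higher at 22 than at 4 weeks. Tcap, Nebl and Hrc were called lower in 4-week BPH/2J and higher with age, and Tnnt2, Ckmt2, Mb, Fabp3 and Trdn lower in 4-week BPH/2J alone. Atp2a2 was the only gene lower in 22-week BPH/2J than in both other groups, and Myl4, Tpm1, Pln, Casq2, Nppa and Smpx were called in none. How many of all tested genes show each pattern was not counted. Both comparisons with BPN/3J use the same BPN/3J libraries, so calls in both are not independent. In the authors' deposited table, 23 of the 38 genes were lower than in BPN/3J at 22 weeks and 31 in 4-week BPH/2J, and 7 were higher and 1 lower at 22 than at 4 weeks.

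Summed levels moved the same way. Without Tpm1, Atp2a2 and Des, the other 35 genes summed to 954, 794 and 856 CPM in 22-week BPH/2J, 933, 614 and 706 CPM in 4-week BPH/2J, and 1397, 1663 and 1469 CPM in BPN/3J. The mean of 22-week BPH/2J was 0.575 times that of BPN/3J, and the mean of 4-week BPH/2J was 0.498 times it. With the 3 genes included these ratios were 0.640 and 0.656, and between the ages the ratio was 1.15 without and 0.976 with them. Tpm1, Atp2a2 and Des on their own summed to 648, 610 and 639 CPM in 22-week BPH/2J, and to 714, 804 and 836 CPM in 4-week BPH/2J, against 764, 847 and 887 CPM in BPN/3J.

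Libraries of 1 group ranked alike for many of the genes. At 4 weeks replicate 1 was the highest of its group for 28 of the 37 genes, while it was the highest for 42.7% of all tested genes. It also had the highest summed fibroblast markers of its group, at 1151 CPM against 753 and 757 CPM, and the highest mitochondrial share, at 2.63% against 1.19% and 1.33% of counts. In 22-week BPH/2J replicate 1 was the highest for 23 of the 37, while it was so for 30.0% of all genes. Replicate 2 of that group was the lowest for 22 and the highest only for Myh6 and Myh7, while it was the highest for 36.0% of all genes. The share of all genes lowest in it was not counted. In BPN/3J replicate 2 was the highest for 24, and for 31.4% of all genes. Replicate 3 of BPN/3J was the highest for 10, among them Acta1, Ckm, Des, Actn2, Ttn and Myom1, and for 37.4% of all genes. No single order of libraries thus held for all of the 37.

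**Figure D4:**
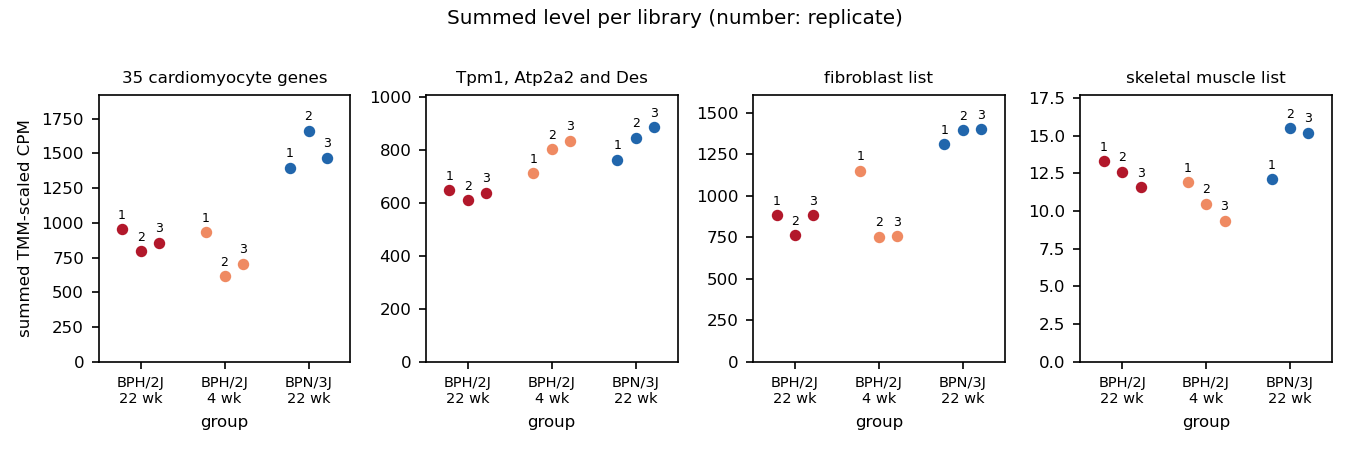
Summed TMM-scaled CPM per library in 22-week BPH/2J, 4-week BPH/2J and BPN/3J (points, numbered by replicate, each axis from 0) for 35 cardiomyocyte genes, for Tpm1, Atp2a2 and Des, for a fibroblast list and for a skeletal muscle list. The 35 genes sum to 794 to 954 CPM in 22-week BPH/2J, 614 to 933 CPM in 4-week BPH/2J and 1397 to 1663 CPM in BPN/3J, and 4-week replicate 1 is the highest of its group for them and for the fibroblast list.

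Ratios between partner genes leave out what scales all heart muscle transcripts alike. Counts of Myh7 were 9.26%, 9.06% and 9.53% of those of Myh6 in 22-week BPH/2J, 10.1%, 9.84% and 8.85% of them in 4-week BPH/2J, and 7.68%, 6.97% and 7.23% of them in BPN/3J. Both BPH/2J groups lay above BPN/3J. Counts of Myl4 were 5.77%, 4.15% and 6.01% of those of Myl3 in 22-week BPH/2J, 4.33%, 5.97% and 6.64% of them in 4-week BPH/2J, and 3.06%, 3.48% and 3.83% of them in BPN/3J. These ratios, that of Acta1 to Actc1 and that of Nppa (3 to 20 counts per library) to Myh6 did not overlap between BPN/3J and either BPH/2J group. In exact two-sided permutation tests over 7 ratios and 3 comparisons each of these, and that of Myl7 to Myl2 at 22 weeks, reached p = 0.1, the smallest that 3 against 3 libraries allow, and 0.233 after Benjamini-Hochberg adjustment over the 21 tests, so none could pass 0.05. Counts of Pln were 36.1%, 26.1% and 27.1% of those of Atp2a2 in 22-week BPH/2J, 28.0%, 11.5% and 15.1% of them in 4-week BPH/2J, and 27.1%, 28.8% and 19.8% of them in BPN/3J, with overlap everywhere.

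A second list of 66 genes that heart muscle expresses, of which 64 were found and 62 tested, gave a more divided result. In 22-week BPH/2J against BPN/3J 5 were higher and 19 lower, with a median log2 difference of -0.27, while of all tested genes 19.8% were higher and 18.2% lower. The share of this list called in either direction was thus close to the 38.0% over all genes, but its calls leaned to lower ones. Ranges were apart with BPH/2J lower for 26 of the 62 and higher for 8, beside 26.4% and 29.3% of all tested genes. Some genes of this list are also expressed by endothelial cells, such as the gap junction gene Gja1, at 468 ± 45.7 CPM in 22-week BPH/2J and 373 ± 10.6 CPM in BPN/3J (SD, n = 3 each). The actin binding protein Xirp2, at -1.32 ± 0.18, and the cardiac myosin light chain kinase Mylk3, at -1.32 ± 0.16, had the most negative called differences. The most positive were those of the stress-responsive protein Ankrd1, at 0.95 ± 0.27, the potassium channel Kcnj2, at 0.81 ± 0.08, and the mitochondrial dehydrogenase Idh2, at 0.37 ± 0.13.

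In 4-week BPH/2J against BPN/3J 6 genes of this list were higher and 31 lower, and between the ages 14 were higher and 4 lower at 22 weeks, with medians of -0.57 and 0.27. The shares over all tested genes were 27.8% for higher and 25.3% for lower calls in 4-week BPH/2J, and 19.9% and 21.1% between the ages. The Z disc protein Myot had 13, 10 and 12 counts in 22-week BPH/2J, 2, 4 and 6 counts in 4-week BPH/2J, and 19, 21 and 16 in BPN/3J. All its 4-week counts were under 10, the minimum count of the filter. Myot thus passed through 22-week libraries, where it is higher, so its calls carry no weight. Its differences were the most negative in 4-week BPH/2J, at -2.27 ± 0.36, and the most positive with age, at 1.51 ± 0.38. Among the genes named here Mylk3 followed in 4-week BPH/2J, at -1.74 ± 0.17. With age desmoglein Dsg2 followed at 1.03 ± 0.28 and Art3 at 0.93 ± 0.12. Kcnj2, Dkk3 and Kcnq1 were the most positive in 4-week BPH/2J, at 1.35 ± 0.08, 0.72 ± 0.27 and 0.64 ± 0.12. Cav3, the muscle caveolin, vinculin Vcl and Kcnq1 were the most negative with age, at -0.88 ± 0.31, -0.87 ± 0.09 and -0.69 ± 0.12.

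Markers of other cells were set beside these results. Of 25 markers of skeletal muscle 15 were found, 7 of them tested. They summed to 11.6 to 13.3 CPM in 22-week BPH/2J, 9.36 to 11.9 CPM in 4-week BPH/2J and 12.1 to 15.5 CPM in BPN/3J. The 22-week BPH/2J and BPN/3J ranges overlapped, and 4-week BPH/2J lay below BPN/3J. The most abundant, the fast skeletal light chain Mylpf, was at 5.64, 4.47 and 6.02 CPM in 22-week BPH/2J, 3.39, 2.14 and 2.30 CPM in 4-week BPH/2J, and 4.59, 6.81 and 3.75 CPM in BPN/3J. Without Mylpf the 4-week BPH/2J and BPN/3J sums overlapped, at 7.06 to 8.48 CPM and 7.53 to 11.4 CPM. Against BPN/3J 0 of the 7 were called at 22 weeks, and in 4-week BPH/2J 2 were higher and 2 lower. Of all tested genes 19.8% were higher and 18.2% lower at 22 weeks, and 27.8% and 25.3% in 4-week BPH/2J. Fibroblast markers (15 of 15 found) summed to 762 to 881 CPM in 22-week BPH/2J, 753 to 1151 CPM in 4-week BPH/2J and 1311 to 1402 CPM in BPN/3J. Their most abundant gene Gsn was at 290 ± 41.5 CPM, 174 ± 41.0 CPM and 703 ± 22.0 CPM (SD, n = 3 each) in the same order, with BPN/3J above both BPH/2J groups. Without Gsn the other 14 summed to 511 to 596 CPM in 22-week BPH/2J, 594 to 931 CPM in 4-week BPH/2J and 624 to 710 CPM in BPN/3J, so that 4-week BPH/2J and BPN/3J overlapped. In 22-week BPH/2J against BPN/3J 2 of the 15 markers were higher and 6 lower. In 4-week BPH/2J 5 were higher and 8 lower, both beside the same shares of all tested genes. The collagen gene Col3a1 was among the higher ones in both, at 80.8 ± 17.6 CPM in 22-week BPH/2J and 220 ± 59.4 CPM in 4-week BPH/2J against 35.2 ± 11.9 CPM in BPN/3J (SD, n = 3 each). Macrophage markers (17 of 18 found) summed to 333 to 384 CPM in 22-week BPH/2J, 549 to 988 CPM in 4-week BPH/2J and 591 to 897 CPM in BPN/3J, with Lyz2 at 92.2 ± 14.0, 202 ± 69.5 and 146 ± 38.5 CPM. In 22-week BPH/2J against BPN/3J 12 of these 17 were lower and 1 higher, beside 18.2% and 19.8% of all tested genes. The 17 had a median log2 difference of -0.94 there. For 4-week BPH/2J against BPN/3J 2 were lower and 2 higher, beside 25.3% and 27.8% of all tested genes. Lymphocyte markers summed to 63.3 to 131 CPM in 22-week BPH/2J, 46.5 to 70.4 CPM in 4-week BPH/2J and 63.6 to 73.2 CPM in BPN/3J, those of red cells and platelets to 134 to 164, 111 to 224 and 190 to 231 CPM (Hbb-bs), and those of epicardium, Schwann cells and fat to 49.9 to 67.1, 96.2 to 117 and 119 to 129 CPM (Wt1). At 22 weeks 5 of the 10 tested red cell and platelet markers were lower in BPH/2J and 0 higher. Of the 13 tested lymphocyte markers 1 was lower and 2 were higher. Of all tested genes 18.2% were lower and 19.8% higher in that comparison. Mitochondrial transcripts took 1.45% to 1.91% of counts in 22-week BPH/2J, 1.19% to 2.63% in 4-week BPH/2J and 2.02% to 2.78% in BPN/3J. The part of these cells and of RNA quality in the heart muscle differences was not tested.

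Pericyte and smooth muscle markers (15 of 15 found), of cells that also make Tpm1, Atp2a2 and Des, summed to 1885 to 2194 CPM in 22-week BPH/2J, 1959 to 2343 CPM in 4-week BPH/2J and 1690 to 1921 CPM in BPN/3J. The pericyte gene Rgs5 led them at 776 ± 69.2, 853 ± 89.7 and 470 ± 50.4 CPM. Without Rgs5 the other 14 averaged 1243, 1336 and 1344 CPM in the same order, so the lower BPN/3J sum rested on that gene. At 22 weeks 1 of the 15 was higher and 2 were lower in BPH/2J, while of all tested genes 19.8% were higher and 18.2% lower. Endothelial markers (25 of 25 found) summed to 38473 to 41829 CPM in 22-week BPH/2J, 30896 to 32639 CPM in 4-week BPH/2J and 37974 to 43093 CPM in BPN/3J, led by Fabp4 at 6947 ± 567, 5153 ± 268 and 6429 ± 663 CPM. In 22-week BPH/2J against BPN/3J 11 of the 25 were higher and 4 lower, beside the same shares of all tested genes. The sums overlapped at 22 weeks, but without the water channel Aqp1, at 4114 ± 552 CPM in 22-week BPH/2J and 8263 ± 1277 CPM in BPN/3J (SD, n = 3 each), they were 34881 to 37138 CPM in 22-week BPH/2J and 31129 to 33769 CPM in BPN/3J, with no overlap.

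Some counts are uncertain because reads can be shared. Of the windows of 100 bases in the Myh6 transcript 11.4% occur in another transcript, all of these in Myh7, and 13.9% of those of Myh7 occur elsewhere. The shares were 57.1% for Pln, 43.9% for Nppa, 30.7% for Mb and 21.7% for Fabp3, through other annotated transcripts. Myom1 shares 207 exon bases with Myl12a on the opposite strand, which had 134890 counts over the 9 libraries, against 8294 for Myom1. The sources used here do not say whether counting used strand, so Myom1 counts and those of Myl12a cannot be fully told apart.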

How the data were processed

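RNA of 9 libraries of bead-sorted mouse cardiac endothelium was read in 100-base single reads. Build mm9, TopHat2 2.0.13 with Bowtie2, featureCounts (Subread), CASAVA 1.8.2, FastQC and edgeR are listed without roles or settings in the submitters' processing notes. Per the file headers, the authors deposited raw counts for 18094 genes, CPM, gene lengths, and log2 fold changes with p-values and false discovery rates from their own comparisons. Depth was 28806840 to 32913813 counts, so 3 counts, the limit a count of 0 allows, were 0.0911 to 0.104 CPM (counting error only).

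From the counts, filterByExpr kept 15277 genes, TMM scaled the libraries, and group was fitted over all 9 by quasi-likelihood (edgeR 4.0.16, R 4.3.3), with two-sided F tests and Benjamini-Hochberg adjustment over all tested genes at 0.05. SEs are the absolute log2 difference over the square root of F. The 95% intervals use this SE with a normal quantile, which makes them somewhat narrower than the F test would give. RPKM divides TMM-scaled CPM by the deposited length. The fit was tested on simulated data. Sequences came from RefSeq (GRCm38.p6), and shared windows and overlaps from GENCODE M21, with no coordinates carried over to mm9.

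Members and lists were chosen with earlier results of these data known. In each comparison full statistics went to the members with the 4 largest and 4 smallest log2 differences and the member of highest RPKM in each role, and of the second list to the 3 largest and 3 smallest called differences. Of each other list the most abundant gene was named. Some genes that this rule would name are not reported here. Genes outside this rule (Myot counts, Sln, and the members given with differences alone) were added after their values were seen. Alternatives were other scalings, filters and fits, DESeq2 1.42.0, and leaving out each library.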

Additional observations from a re-analysis of the deposited data

How the results depend on the processing

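Among the 37 tested genes of the set, no difference past the threshold changed sign under any alternative run. Counts of lower genes among the 37 in BPH/2J of either age against BPN/3J stayed within 1.5 times the reported ones. Leaving out each library in turn gave 0 to 1 higher genes in BPH/2J of either age against BPN/3J (Myl7 at 22 weeks, Casq2 at 4 weeks), and 2 to 13 higher and 1 to 2 lower genes between the ages. For the second list of heart muscle genes it gave 1 to 5 higher and 11 to 23 lower genes in 22-week BPH/2J against BPN/3J, and 7 to 23 higher between the ages. Between the ages a fit of only the 2 groups compared called 3 of the 37 and 9 of the second list higher, and DESeq2 called 2 of the 37 lower. At a threshold of 0.01, 1 of the 37 and 6 of the second list were higher between the ages, and 1 of the second list was higher and 9 lower in 22-week BPH/2J against BPN/3J. Over all genes that threshold gave 1738 higher and 1694 lower at 22 weeks against BPN/3J, and 1789 higher and 2082 lower between the ages. Without Tpm1, Atp2a2 and Des the summed level in 22-week BPH/2J was 0.575 times that of BPN/3J and 1.15 times that of 4-week BPH/2J, and 4-week BPH/2J was at 0.498 times BPN/3J. Over all 38 genes the last ratio was 0.656 in CPM and 0.586 in RPKM. Sums of markers of other cells without single genes were added after seeing the data. The cause of these shifts was not tested.

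Replicate numbers did not pair the libraries, since residuals of same-numbered libraries correlated between -0.161 and 0.0774. With the replicate block 25 of the 37 were lower in 22-week BPH/2J, 30 in 4-week BPH/2J, and 7 were higher and 1 lower between the ages. Depth limits Myl7, Nppa, Nppb, Myot and Sln, whose libraries held at most 30 counts each.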
